A study of Mus musculus with 32 samples.

Results

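The V1r receptor genes from Vmn1r186 upward were described across the vomeronasal organ (VNO) neuroepithelia of 4 inbred mouse strains. The members were chosen by symbol alone, as every gene named Vmn1r plus a number from that of Vmn1r186 upward and without the suffix -ps, which marks pseudogenes. This gave 50 of the 320 symbols beginning with Vmn1r among 49671 listed genes. The libraries came from 32 untreated mice of 42 days, 4 males and 4 females of each of the strains 129S6/SVEV (129), C57/BL6 (B6), SJL/J (SJL) and SWR/J (SWR), as the labels name them. For 129 the study's text names another substrain, 129Sv/J, so that the substrain is uncertain. Each library held the ribodepleted total RNA of the VNO epithelium of 1 mouse, and its values are counts of stranded reads placed uniquely on a gene. The study asked which genes differ between the sexes and between the strains.

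V1r receptors are G protein-coupled receptors of the apical sensory neurons of the VNO, where they detect pheromones and signal through the G protein subunit Gnai2 and the channel Trpc2. A neuron expresses as a rule only 1 of these receptor genes, so that the RNA of a receptor in bulk tissue reflects how many neurons chose it and how much each of them makes, which cannot be told apart here. The genes lie in dense arrays, and members of a clade are related copies with a coding sequence in a single exon. The tissue expressed markers of mature vomeronasal neurons in all libraries, with a summed normalized count of 22703 to 36428 over Omp, Xntrpc, Gnai2, Gnao1 and Cnga4. Most of this sum came from Omp and Gnai2, with strain means of 16606 to 19534 and 6044 to 8753. Xntrpc had strain means of 715 to 1213.

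Among the members, 34 lie on chromosome 13 and 14 on chromosome 17. Vmn1r238 lies outside both arrays, and Vmn1r186 was not found in the annotation used. The chromosome 13 array runs from Vmn1r188, at 22084440 to 22095916 on the plus strand of GRCm38, to Vmn1r223, which ends at 23253906. Older symbols place 20 of its genes in clade H and 9 in clade I. On chromosome 17 the same symbols place 8 genes in clade E and 5 in clade F, among them Vmn1r237 at 21311865 to 21314912. The gene types deposited with the counts give Vmn1r221 as an unprocessed pseudogene, Vmn1r227 as a processed transcript and the others as protein-coding genes. In GENCODE M21 both Vmn1r221 and Vmn1r227 had a coding sequence, of 939 and 936 bases.

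Near-identical copies matter for these data because a read that matches several genes equally well was not counted. Coding sequences of 49 members were aligned in 1176 pairs. The nearest relative of a member had 58.8 to 96.0% of its coding bases identical, with a median of 87.9%. Among the 42 members with a clade name, 35 had their nearest relative within that clade. Of the rest, only Vmn1r237 of clade F was nearest to a gene of another named clade, Vmn1r225 of clade E. For Vmn1r189, Vmn1r193, Vmn1r195, Vmn1r202, Vmn1r206 and Vmn1r231 the nearest relative had no clade name. The 3 most identical pairs of tested members were all on chromosome 13: Vmn1r206 and Vmn1r209 (95.95%, 38 differences), Vmn1r189 and Vmn1r221 (95.6%, 41 differences) and Vmn1r188 and Vmn1r222 (93.4%, 61 differences). Of each pair the stretch of coding sequence with the most differences is shown, since it is there that reads can tell the copies apart. Sequences are from GENCODE M21 (GRCm38), run 5′ to 3′ and are numbered from 1 at the A of the start codon, and capitals mark bases that differ within the pair. The stretches cover bases 448 to 567 of Vmn1r206 and Vmn1r209, with 11 differences, bases 370 to 489 of Vmn1r189 and Vmn1r221, with 15, and bases 393 to 512 of Vmn1r188 and Vmn1r222, with 28.
Vmn1r206: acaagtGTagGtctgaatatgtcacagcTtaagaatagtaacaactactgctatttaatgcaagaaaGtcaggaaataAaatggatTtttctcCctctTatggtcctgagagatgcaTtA
Vmn1r209: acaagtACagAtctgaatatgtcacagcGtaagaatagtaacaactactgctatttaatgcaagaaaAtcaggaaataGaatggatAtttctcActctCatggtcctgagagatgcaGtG
Vmn1r189: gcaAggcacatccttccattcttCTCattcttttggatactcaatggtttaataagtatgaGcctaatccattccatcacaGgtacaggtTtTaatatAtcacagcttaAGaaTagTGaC
Vmn1r221: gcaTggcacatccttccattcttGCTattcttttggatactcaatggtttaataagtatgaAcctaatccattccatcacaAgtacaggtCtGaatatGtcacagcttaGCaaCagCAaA
Vmn1r188: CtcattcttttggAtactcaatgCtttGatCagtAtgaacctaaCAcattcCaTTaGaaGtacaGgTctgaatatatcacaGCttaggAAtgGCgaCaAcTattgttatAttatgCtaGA
Vmn1r222: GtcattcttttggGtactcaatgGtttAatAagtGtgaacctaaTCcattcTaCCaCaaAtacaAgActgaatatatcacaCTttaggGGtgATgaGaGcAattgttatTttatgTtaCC

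For comparison, the clade F gene Vmn1r236 and its nearest relative Vmn1r233, which differed in their behaviour among the strains as described further on, are shown over bases 74 to 193 and 5 to 124, with 35 differences.
Vmn1r236: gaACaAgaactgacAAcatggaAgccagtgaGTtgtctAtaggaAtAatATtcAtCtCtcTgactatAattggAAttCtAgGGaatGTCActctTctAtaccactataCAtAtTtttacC
Vmn1r233: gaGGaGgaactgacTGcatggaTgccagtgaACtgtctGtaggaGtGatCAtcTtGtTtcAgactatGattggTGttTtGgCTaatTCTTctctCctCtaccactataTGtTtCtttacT

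Each member transcript was also cut into every window of the read length and compared with the transcripts of all other annotated genes. For 27 of 49 members no window occurred in another gene, and for 22 at least 1 did. More than 10% of windows were shared in 4 members, Vmn1r189 (10.2%, in part with Vmn1r221), Vmn1r199 (13.2%), Vmn1r208 (16.6%) and Vmn1r238 (45.4%). The share was 4.55% in Vmn1r188, 2.11% in Vmn1r206, 9.07% in Vmn1r209, 4.43% in Vmn1r221 and 1.95% in Vmn1r222. The counts of these genes are therefore uncertain to the extent that reads from shared windows were left out. The reads were sequenced in pairs and the windows were compared singly, so the shares of windows are not shares of reads lost.

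Depth ranged from 5106398 to 18640871 reads on genes per library, with a median of 11461344.5, and the members received 4782 to 18116 reads per library. All Vmn1r symbols together took 0.275 to 0.459% of the reads on genes. The reads on gene families of other tissues such as skin, testis and placenta, taken as RPM (reads scaled to a common library size) to measure background, had medians of 1.11 in 129, 4.75 in SWR, 5.09 in SJL and 9.71 in B6, and the highest value, 31.9, was in B6. The fit was repeated with it as a term. The first 129 male and the first B6 female stood apart by gland markers, with summed normalized counts of 97857 and 95702 over Bpifa1, Bpifb1, Dmbt1, Lyz1 and Muc5b, where the next library had 41089, and the counts of DE members are given with and without both. Of 5 markers of main olfactory neurons 4 were tested and 2 were DE in some pair. Those 2, Gnal and Stoml3, were highest in B6, with mean normalized counts of 57.3 and 45.9 against at most 25.5 and 16.8 in the other strains, whereas the more abundant Adcy3 and Cngb1 were lowest in B6, at 587 and 1382 against at least 744 and 1637. The untested marker Cnga2 was also highest in B6, with a mean of 24.1 against 0.676 in 129, 2.29 in SJL and 3.54 in SWR. The part of main olfactory neurons in the results was not tested.

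The members differed widely in level. Over all 32 libraries the normalized count per kb of exon, the scale on which levels of different genes are compared here, had a median of 67.2 on chromosome 17 and 26.5 on chromosome 13. The 6 highest of the tested members were Vmn1r235 (223), Vmn1r228 (201), Vmn1r237 (188), Vmn1r232 (153), Vmn1r231 (127) and Vmn1r210 (111), and all but Vmn1r210, of clade H on chromosome 13, are receptors of clades E and F on chromosome 17. At the other end, the clade I genes Vmn1r201 and Vmn1r195 had 2.36 and 2.58 normalized counts per kb. By clade, the median per kb was 83.2 in F, 67.2 in E, 28.3 in H and 9.26 in I, and the ranges of the clades overlapped. Vmn1r218 of clade I and Vmn1r217 of clade H, which were matched to the annotation by symbol only and given no value per kb, had mean normalized counts of 483 and 407.

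Reads were too few to test 3 members. Vmn1r186 had 1 read in all libraries together, in SJL, and Vmn1r238 had 4 reads, all in B6. Vmn1r212 had at most 11 reads in any library, with a mean normalized count of 7.67 ± 2.46 in SWR and 5.46 ± 3.33 in B6 and of 1.66 ± 1.64 in 129 and 1.93 ± 1.82 in SJL (SD, n = 8 each). Its reads per library were 6 to 11 in SWR, 1 to 9 in B6 and 0 to 4 in both 129 and SJL, and it was DE in some pair with DESeq2 and with no filter. The counts of Vmn1r186 and Vmn1r238 lie at or near the limit of 3 reads per library that was treated as a floor, so no statement on expression is made for these genes.

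**Figure D1:**
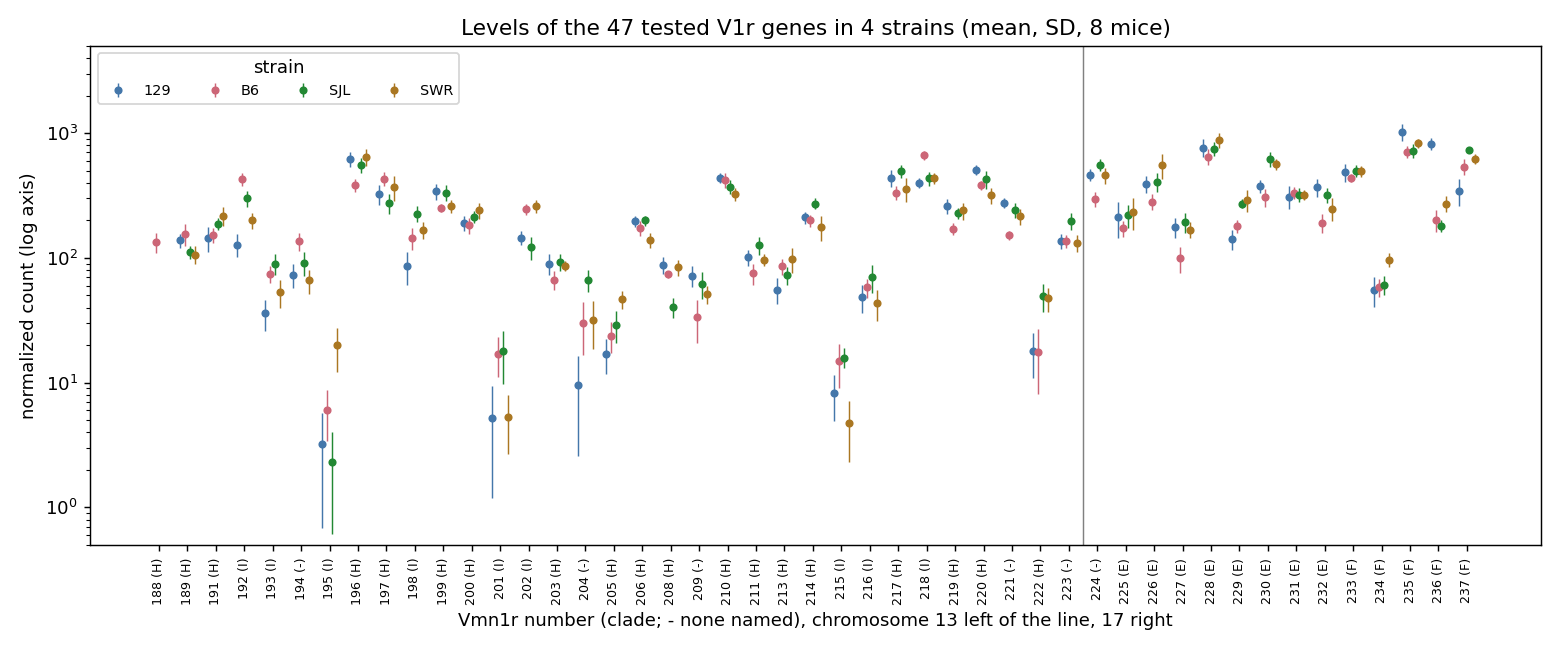
Mean normalized count (points, log axis) and SD (bars) of the 47 tested V1r genes in 8 mice of each strain, in order of number, with the clade in brackets. Vmn1r188 has a point only in B6 because it had 0 reads in the other 3 strains, and the 4 points of Vmn1r231 lie close together, between 310 and 332.

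Strains were compared by the log2 fold change (LFC), and a gene is called differentially expressed (DE) here where the fold change was above 2 and the false discovery rate (FDR) of edgeR was under 0.05, with p-values that measure the spread between individual mice. Of the 47 tested members, 18 (38.3%) were DE between at least 1 pair of strains, beside 19.8% of all 18382 genes tested and 64 of 110 tested genes (58.2%) among Vmn1r1 to Vmn1r185. With no limit on the fold change, 45 of the 47 members passed an FDR of 0.05 in some pair, beside 80.1% of all genes, so that it is mostly the fold limit that parts the DE members from the others. The median of the largest absolute LFC over the 6 pairs was 0.82, and 29 members stayed below the fold limit throughout. DE members were 14 of 33 on chromosome 13 and 4 of 14 on chromosome 17. By clade they were 7 of 9 in I, 4 of 19 in H, 2 of 8 in E and 2 of 5 in F, and the other 3 had no clade name. Of these 3, Vmn1r194 and Vmn1r204 had their nearest relative by coding sequence in clade I, and Vmn1r209 had its nearest in clade H. The differences between the shares of chromosomes and of clades were not tested. Without the pair of libraries that stood apart there were again 18, with Vmn1r230 lost and Vmn1r232 gained. In single pairs the count then became 8 in place of 7 between B6 and 129 and 5 in place of 6 between SJL and B6, and it was the same number in the other 4 pairs and in the tests of sex and of its interaction with strain.

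Between B6 and 129, 7 members (14.9%) were DE, against 11.1% of all genes. Vmn1r188, Vmn1r192, Vmn1r193, Vmn1r201 and Vmn1r204 were higher in B6 (5 members, against 8.72% of all genes), whereas Vmn1r209 and Vmn1r236 were lower (2 members, against 2.40%). Between SJL and 129 there were 9 (19.1%, against 8.38% of all genes). Vmn1r192, Vmn1r193, Vmn1r198, Vmn1r201, Vmn1r204, Vmn1r222 and Vmn1r237 were higher in SJL (7 members, against 5.61%) and Vmn1r208 and Vmn1r236 were lower (2, against 2.76%). Between SWR and 129 there were 6 (12.8%, against 7.73%). Vmn1r195, Vmn1r204, Vmn1r205, Vmn1r222 and Vmn1r229 were higher in SWR (5, against 4.62%) and Vmn1r236 was lower (1, against 3.11%).

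SJL differed from B6 in 6 members (12.8%, against 7.99% of all genes), with Vmn1r204, Vmn1r222 and Vmn1r230 higher in SJL (3, against 2.67%) and Vmn1r188, Vmn1r195 and Vmn1r202 lower (3, against 5.33%). SWR differed from B6 in 7 (14.9%, against 8.05%), with Vmn1r195 and Vmn1r222 higher in SWR (2, against 2.52%) and Vmn1r188, Vmn1r192, Vmn1r194, Vmn1r201 and Vmn1r215 lower (5, against 5.53%). SWR differed from SJL in 6 (12.8%, against 4.50%), with Vmn1r195, Vmn1r202 and Vmn1r208 higher in SWR (3, against 2.19%) and Vmn1r201, Vmn1r204 and Vmn1r215 lower (3, against 2.31%). Pairs that name the same strain share its 8 libraries. Without the third SJL male, the count between SJL and B6 fell from 6 to 3.

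The normalized counts of 1 strain all lay above those of the other in 15 members between B6 and 129 (14.4% of all genes did so), in 10 between SJL and 129 (11.9%), in 10 between SWR and 129 (13.5%), in 15 between SJL and B6 (13.1%), in 13 between SWR and B6 (12.5%) and in 7 between SWR and SJL (10.2%). In at least 1 pair this held for 32 of the 47 members and for 34.4% of all genes.

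**Figure D2:**
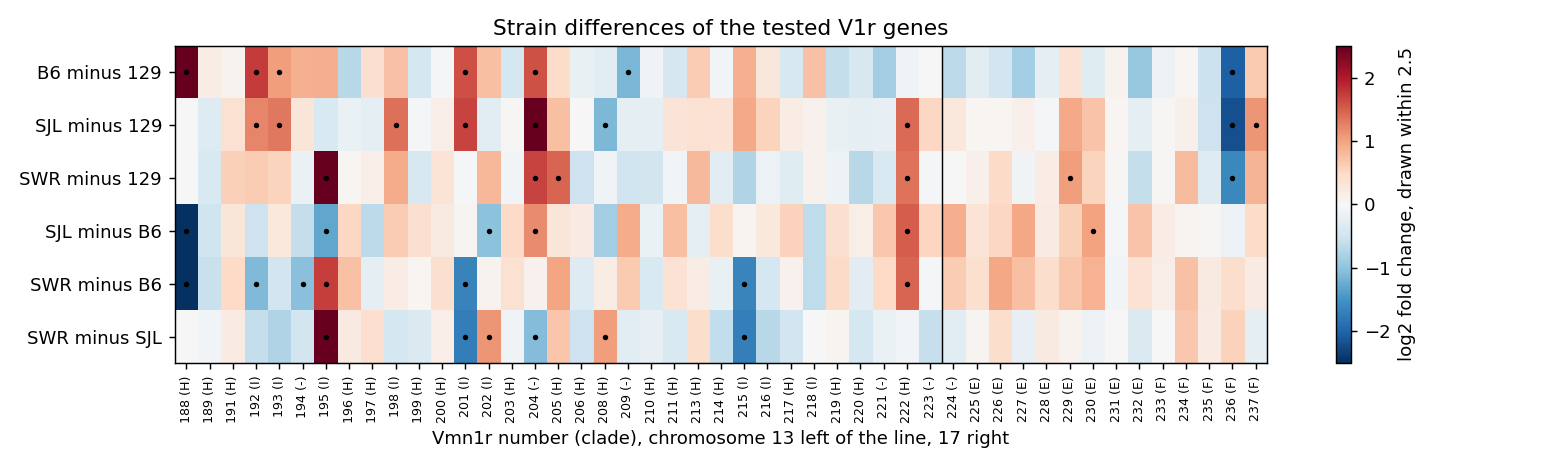
LFC between each pair of strains (rows) for the 47 tested V1r genes in order of number (columns, clade in brackets), with red for higher in the strain named before "minus" and colours ending at 2.5. Black dots mark the comparisons with a fold change above 2 and an FDR under 0.05, which lie in 18 genes and are denser left of the line, on chromosome 13, than right of it.

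Vmn1r188, a clade H receptor at the start of the chromosome 13 array, was the only tested member with reads in a single strain. In the 8 B6 libraries its normalized count had a lowest value of 86.2, a median of 140.7 and a highest value of 162, with 58 to 159 reads per library. In the other 24 libraries it had 0 reads. Its level in B6 was at least 43.9-fold higher than in 129, 46.3-fold higher than in SJL and 47.5-fold higher than in SWR, where the bound takes 3 reads in every library of the strain without reads. The pseudogene Vmn1r-ps94 lies within Vmn1r188 on the same strand, overlaps it by 458 exonic bases and showed a like pattern, with 49.0 to 77.2 normalized counts in B6 and 0.771 to 7.97 over the libraries of the other strains. Vmn1r189, the next member along the chromosome, was present in all strains, with means of 157 ± 31.8 in B6 and 138 ± 18.7 in 129, and of 106 ± 17.3 in SWR and 111 ± 14.1 in SJL, and was not DE in any pair. Of the 803 windows of the read length in the coding part of Vmn1r188, 0 occurred in another gene. Reads of all strains were placed on the reference genome of B6, so that a lack of expression and a copy that is missing or too different to receive reads cannot be told apart.

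Vmn1r222, the nearest relative of Vmn1r188 and printed beside it above, was low in B6 and in 129 and higher in SJL and SWR. Its lowest, median and highest normalized counts were 6.09, 15.3 and 35.6 in B6 and 8.74, 15.7 and 27.7 in 129. They were 29.5, 50.2 and 65.0 in SJL and 34.6, 45.4 and 61.1 in SWR. SJL and SWR lay above 129 without overlap, and both overlapped B6 only through its highest mouse. The LFC was 1.42 ± 0.25 for SJL against 129, 1.36 ± 0.25 for SWR against 129, 1.52 ± 0.25 for SJL against B6 and 1.45 ± 0.25 for SWR against B6 (SE), and all 4 passed the test.

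**Figure D3:**
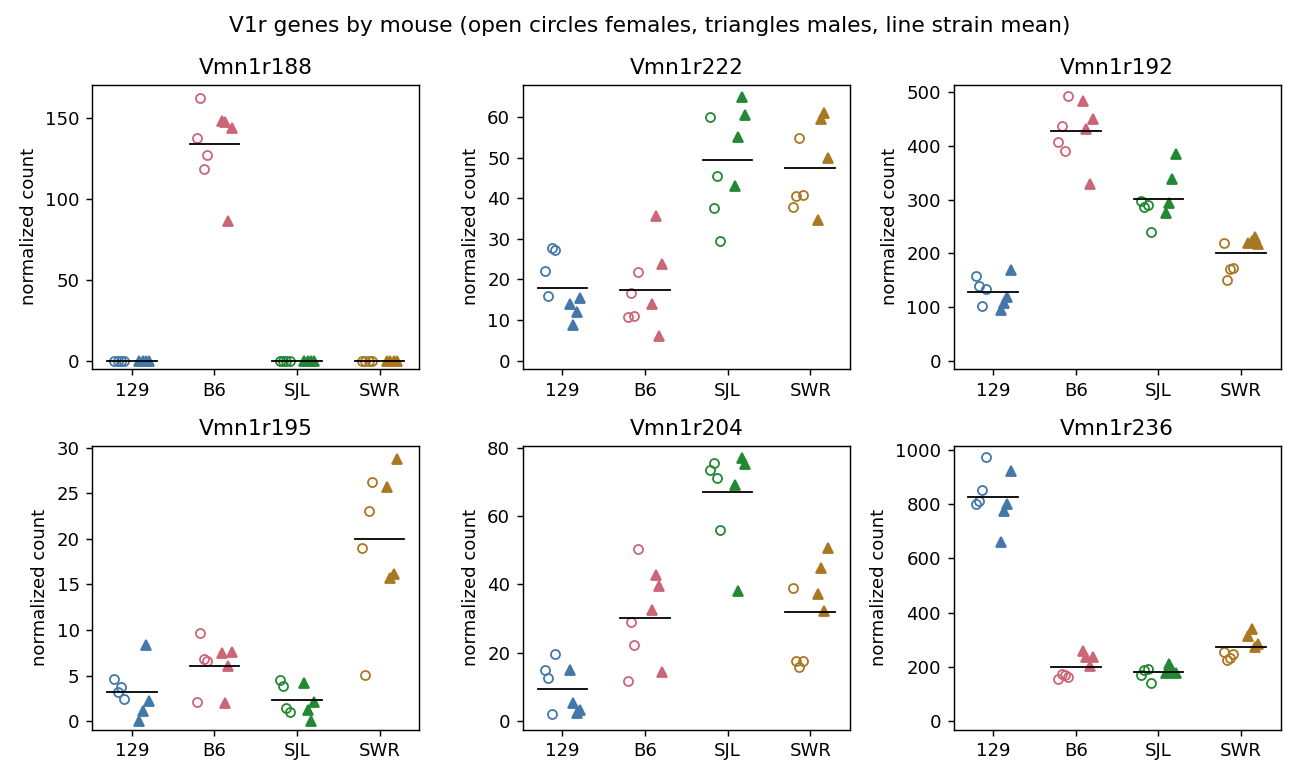
Normalized counts of 6 V1r genes in each mouse, by strain, with open circles for females, filled triangles for males and a line at the strain mean. Vmn1r188 is at 0 outside B6, Vmn1r236 in 129 lies between 662 and 973 and above every mouse of the other strains, and the other 4 genes overlap between at least 1 pair of strains.

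The clade I receptors, most of them at low levels, differed among the strains in their summed share of reads. As a share of all Vmn1r reads the 9 genes took 2.18% in 129 (2.05 to 2.32 over the mice), 2.67% in SWR (2.5 to 2.82), 3.07% in SJL (2.90 to 3.31) and 4.17% in B6 (3.73 to 4.44), and no 2 strains overlapped. Without Vmn1r192 the shares were 1.86% in 129 (1.74 to 2.04), 2.22% in SWR (2.10 to 2.37), 2.35% in SJL (2.12 to 2.54) and 3.10% in B6 (2.70 to 3.30), where SWR and SJL overlapped and the other strains did not. A large part of the sum came from Vmn1r218, with a mean normalized count of 483 where the means of the 9 genes sum to 1245. Its means were 400 ± 38.6 in 129 and 665 ± 60.6 in B6, with an LFC of 0.73. Shares without Vmn1r218 were not computed. Between B6 and 129 the LFC of all 9 genes was above 0, with a median of 0.88 beside 0.02 over all genes. With no fold limit 7 passed an FDR of 0.05, all higher in B6, as did 27.3% of all genes. The 9 stayed above 0 with DESeq2, its size factors, a library size of Vmn1r reads only, no filter, the replicate block and a term for background. The levels of macrophage markers moved with this order in part, with a summed normalized count of 405 to 590 in 129, 534 to 785 in SWR, 804 to 1006 in SJL and 929 to 1233 in B6, over Cd68, Csf1r, Adgre1, C1qa and C1qb, of which 3 were DE in some pair, and their part in the result was not tested. All fits used reads placed on the reference genome of B6, and the part of this placement in the result was not tested either.

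Within clade I, Vmn1r192 carried the largest step between B6 and 129. Its lowest, median and highest normalized counts were 93.6, 126 and 169 in 129, 151, 219 and 230 in SWR, 239, 292 and 384 in SJL, and 330, 435 and 494 in B6. Neighbours in this order overlapped between 129 and SWR and between SJL and B6, and SWR lay wholly below SJL. The LFC was 1.74 ± 0.11 for B6 against 129 (FDR 3.14e-15), 1.23 ± 0.11 for SJL against 129 and -1.10 ± 0.10 for SWR against B6. Vmn1r193, which lies next to it, had an LFC of 1.04 for B6 and 1.31 for SJL against 129. Vmn1r198 had 1.37 for SJL against 129.

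Vmn1r195, also of clade I, was highest in SWR. Its normalized counts had a lowest value of 5.07, a median of 20.98 and a highest value of 28.8 there. They reached 9.72 in B6, 8.34 in 129 and 4.54 in SJL, with at most 8, 7 and 6 reads per library in these strains. SWR lay above SJL in every mouse and overlapped B6 and 129 through its lowest mouse. The LFC was 3.02 ± 0.40 for SWR against SJL (FDR 2.73e-07), 2.64 ± 0.39 against 129 and 1.73 ± 0.36 against B6. Vmn1r195 was also lower in SJL than in B6 (LFC -1.29 ± 0.47, FDR 0.0257), a difference between counts near the floor.

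Vmn1r215 of clade I was lowest in SWR, with normalized counts of 2.54, 4.00 and 8.29 as lowest, median and highest. The same values were 11.8, 15.9 and 21.1 in SJL, 6.58, 14.8 and 25.0 in B6 and 4.37, 8.39 and 12.4 in 129. SWR lay below SJL without overlap, with an LFC of -1.71 ± 0.26 (FDR 2.74e-06), and overlapped B6, with an LFC of -1.64 ± 0.27. Vmn1r201 was low in both SWR and 129, with means of 5.33 ± 2.63 and 5.26 ± 4.07, beside 17.8 ± 7.95 in SJL and 17.1 ± 6.09 in B6. Its LFC was -1.73 for SWR against SJL and 1.68 for SJL against 129. Vmn1r202 ran otherwise, with an LFC of 1.11 for SWR against SJL and -1.03 for SJL against B6. The clade thus held genes highest in SWR, in SJL and in B6.

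The nearest relative of Vmn1r204, a receptor with no clade name, was Vmn1r202 of clade I, with 87.9% of coding bases identical. Vmn1r204 lies between the clade H genes Vmn1r203 and Vmn1r205 and was DE in 5 of the 6 pairs, more than any other member. Its lowest, median and highest normalized counts were 2.25, 9.13 and 19.8 in 129, 11.7, 30.9 and 50.5 in B6, 15.9, 34.8 and 50.8 in SWR and 38.2, 72.3 and 76.8 in SJL. SJL and 129 did not overlap, and B6 and SWR lay between them and overlapped each other almost wholly. The LFC was 2.76 ± 0.34 for SJL against 129 (FDR 3.53e-08), 1.59 ± 0.36 for B6 against 129 and 1.69 ± 0.35 for SWR against 129. SJL was also higher than B6, by 1.18 ± 0.30, and SWR was lower than SJL, with -1.08 ± 0.29.

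Among the other DE members of the chromosome 13 array, Vmn1r205 had an LFC of 1.45 for SWR against 129, Vmn1r194 one of -1.05 for SWR against B6, and Vmn1r208 one of -1.13 for SJL against 129 and 1.05 for SWR against SJL.

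The partners of the near-identical pairs had different values. Vmn1r209 had means of 72.1 ± 13.3 in 129, 61.9 ± 15.1 in SJL, 51.2 ± 8.39 in SWR and 33.3 ± 12.4 in B6 (SD, n = 8 each), and was lower in B6 than in 129 without overlap (LFC -1.15 ± 0.18, FDR 1.89e-06). Vmn1r206, which shares 95.95% of its coding bases with it, had means of 198 ± 20.7, 199 ± 18.6, 139 ± 19.3 and 173 ± 22.9 in the same order of strains and was not DE in any pair. Its largest LFC was -0.52 ± 0.09 for SWR against SJL. Vmn1r221, a pseudogene by the gene types deposited with the counts, was highest in 129 (278 ± 25.0) and lowest in B6 (151 ± 13.3). The LFC of Vmn1r221 for B6 against 129 was -0.88 ± 0.09, which passed the FDR but not the fold limit. Its relative Vmn1r189 was highest in B6, and its largest LFC was -0.56 ± 0.11, for SWR against B6. The difference between the partners of a pair was not tested.

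The clade F receptor Vmn1r236, at 21282942 to 21294007 of chromosome 17, was higher in 129 than in every other strain. Its lowest, median and highest normalized counts were 662, 805 and 973 in 129. They were 156, 188 and 260 in B6, 141, 184 and 213 in SJL and 226, 265 and 340 in SWR. The 129 mice lay above all others without overlap. The LFC against 129 was -2.05 ± 0.09 in B6, -2.20 ± 0.09 in SJL (FDR 1.58e-20) and -1.62 ± 0.09 in SWR. Its nearest relative Vmn1r233, printed with it above, stayed within an absolute LFC of 0.18 in every pair, with means of 484 ± 77.7 in 129, 439 ± 33.6 in B6, 495 ± 53.4 in SWR and 499 ± 51.3 in SJL. Vmn1r237, the last gene of the array, ran opposite to Vmn1r236, with 273, 314 and 496 as lowest, median and highest in 129 and 670, 743 and 780 in SJL, which did not overlap. The LFC of Vmn1r237 for SJL against 129 was 1.10 ± 0.08 (FDR 3.35e-13), and all 6 pairs passed an FDR of 0.05. Its LFC was 0.65 for B6 against 129 and 0.85 for SWR against 129.

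As a block, the chromosome 17 members took a smaller share of the Vmn1r reads in B6 than in the other strains. The mean share was 11.2% in B6 (10.2 to 11.9 over the mice), 13.6% in SWR (12.9 to 14.0), 14.2% in SJL (13.4 to 14.7) and 15.0% in 129 (14.5 to 15.7), and B6 did not overlap any of them. As a share of all reads on genes the block took 0.0346 to 0.0458% in B6 and 0.0411 to 0.0661% in 129, which overlapped. On that scale the highest B6 mouse, at 0.04579%, lay only just below the lowest of SJL (0.04580%) and of SWR (0.04585%). Of the 14 genes, 9 had their lowest mean in B6 and 1 had its highest there. With no fold limit, 12 of the 14 passed an FDR of 0.05 between SWR and B6, all higher in SWR, as did 19.8% of all genes. Between SJL and B6 8 passed, all higher in SJL, as did 22.3% of all genes. Between B6 and 129, 9 passed as lower in B6, against 25.5% of all genes, and 2 as higher, against 27.3%. The median LFC of the 14 was 0.43 for SWR against B6, 0.39 for SJL against B6 and -0.29 for B6 against 129. With a library size of Vmn1r reads only the same medians were 0.27, 0.33 and -0.29, and with a term for background they were 0.39, 0.37 and -0.21, with 5 genes in place of 9 passing as lower in B6 than in 129. With the fold limit, 1 of the 14 was DE between B6 and 129, 1 between SJL and B6 and 0 between SWR and B6 by edgeR. The sum of 5 markers of mature vomeronasal neurons was lower in B6 than in 129, at 22703 to 28434 against 28517 to 34201 in 129, and overlapped with 26454 to 36428 in SWR and 26620 to 32764 in SJL. Of these markers Cnga4 was DE in 1 pair, and the part of the sum in the result was not tested. The share that all Vmn1r symbols took of the reads had a median of 0.370% in B6, 0.333% in 129, 0.384% in SWR and 0.369% in SJL, and these ranges overlapped.

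In clade E the values behind this were uneven. Vmn1r227 had means of 99.1 ± 22.8 in B6 and 177 ± 32.3 in 129, and of 168 ± 24.8 in SWR and 194 ± 34.5 in SJL, with an LFC of 0.96 ± 0.10 for SJL against B6. Vmn1r226 had means of 282 ± 40.9 in B6 and 556 ± 129 in SWR, with an LFC of 0.96 ± 0.09 and no overlap. Vmn1r232 was lower in B6 (191 ± 34.3) than in 129 (368 ± 59.4), with an LFC of -0.95 ± 0.11. All 3 remained just under the fold limit, as the DE gene Vmn1r230, with an LFC of 1.01 for SJL against B6, was just above it. Vmn1r229 was DE between SWR and 129, with an LFC of 1.05. Vmn1r228, the highest gene of the clade per kb, had means of 649 ± 96.1 in B6 and 880 ± 120 in SWR, with an LFC of 0.43 ± 0.10. Vmn1r235 of clade F, the highest of all, had means of 1026 ± 159 in 129 and 705 ± 76.8 in B6, with an LFC of -0.55 ± 0.08.

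**Figure D4:**
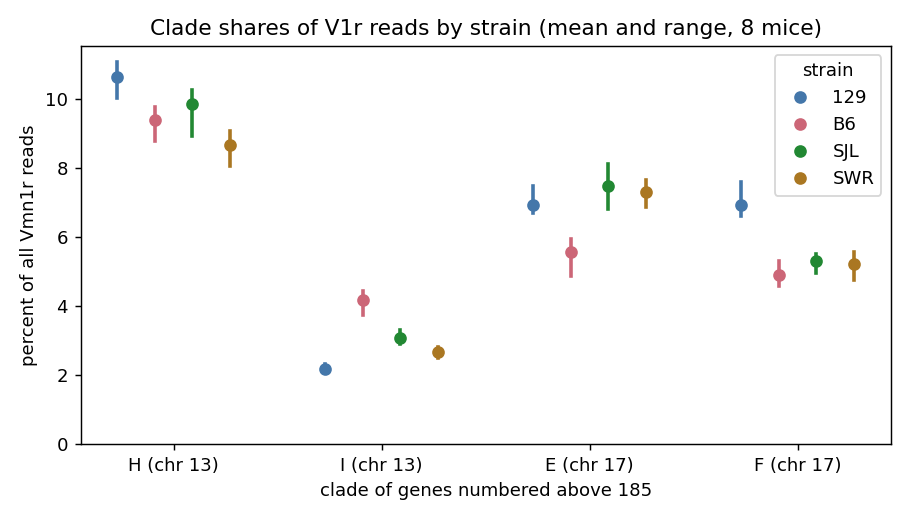
Share of all Vmn1r reads taken by the members of each clade, as mean (points) and range (bars) of 8 mice of each strain. For clade I the 4 strains do not overlap, with 129 lowest and B6 highest, while clade E is lowest in B6 and clade F is highest in 129.

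Clade E took 5.58% of Vmn1r reads in B6 (4.88 to 5.93), 6.93% in 129 (6.69 to 7.49), 7.32% in SWR (6.88 to 7.66) and 7.49% in SJL (6.82 to 8.11), so that B6 stood apart from the others. Clade F took 6.92% in 129 (6.61 to 7.59) and 4.89 to 5.31% as means in the other strains, without overlap. Without Vmn1r236 the clade F mean was 4.83% in 129 (4.57 to 5.21), 4.88% in SJL (4.57 to 5.09), 4.61% in SWR (4.13 to 4.96) and 4.39% in B6 (4.18 to 4.71), and 129 overlapped each of them. Clade H was highest in 129, at 10.6% (10.03 to 11.1), and lowest in SWR, at 8.66% (8.07 to 9.07). In sum the members took 29.3% of Vmn1r reads in 129 and 28.7% in SJL, but 26.0% in both B6 and SWR. As a share of all reads on genes the same sums had means of 0.0927% in B6 to 0.106% in SJL and overlapped between all strains.

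Other members stayed level. Among members with a mean normalized count of 50 or more, the smallest LFCs were those of Vmn1r231, Vmn1r233, Vmn1r200 and Vmn1r225, from both arrays. Vmn1r231 of clade E had means of 310 ± 63.9 in 129, 332 ± 35.9 in B6, 320 ± 31.4 in SWR and 322 ± 42.8 in SJL, and no pair differed by more than 0.10 ± 0.09 in LFC. It and Vmn1r233 were the 2 members that passed an FDR of 0.05 in no pair. Vmn1r200 of clade H had an LFC of 0.40 ± 0.09 for SWR against B6, and Vmn1r225 of clade E had one of 0.41 ± 0.11. Vmn1r210, the clade H gene of highest level per kb, had an LFC of -0.45 ± 0.08 for SWR against 129, from means of 323 ± 37.4 and 441 ± 42.7. Scaling the libraries by Vmn1r reads only moved the median LFC of all genes from -0.01 to -0.18 for SWR against 129, from -0.02 to -0.18 for SWR against B6 and from -0.01 to -0.10 for SWR against SJL, so that values for SWR depend on the scaling to that extent.

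No member was DE between males and females with a fold change above 2 and an FDR under 0.01, as were 0.0381% of all genes. With no limit on the fold change, 3 members passed an FDR of 0.05, against 0.283% of all genes, and all 3 were higher in males. They were the clade E genes Vmn1r225, Vmn1r226 and Vmn1r227, which follow each other on chromosome 17 from 20498158 to 20739150. By unadjusted p of edgeR, 14 members were under 0.05, against 8.97% of all genes, and all 14 were higher in males, against 4.65% of all genes. The largest absolute LFC was 0.48. When libraries were scaled by Vmn1r reads only, 2 members passed an FDR of 0.05 as higher in males and 1 as lower.

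Vmn1r225 had a normalized count of 175 ± 16.8 in the 16 females and 245 ± 60.6 in the 16 males, with an LFC of 0.48 ± 0.08 (FDR 0.00075). Males were 1.65 times females in SWR and 1.38 times in SJL, without overlap, and 1.43 times in 129 and 1.10 times in B6, with overlap. Vmn1r226 had 359 ± 83.1 in females and 459 ± 143 in males, with an LFC of 0.34 ± 0.06 (FDR 0.00435), and the sexes did not overlap in SWR, SJL and B6. Vmn1r227 had 143 ± 40.4 in females and 177 ± 46.0 in males, with an LFC of 0.32 ± 0.07 (FDR 0.036), and the sexes overlapped in every strain. Its FDR rose above 0.05 in 19 of the 32 fits that left out 1 library, to at most 0.0814, and reached 0.116 with a library size of Vmn1r reads only. The FDR of Vmn1r225 and Vmn1r226 stayed under 0.05 in all 32 such fits and in the 7 other fits.

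The direction was shared by most members, in that 38 of 47 had an LFC above 0, with a median of 0.10, but with a library size of Vmn1r reads only 20 of 47 did, with a median of -0.01. In the tested genes from Vmn1r1 to Vmn1r185 it was above 0 in 85 of 110. All Vmn1r symbols took 0.375 ± 0.0444% of reads in males and 0.351 ± 0.0269% in females (SD, n = 16 each). In clade E all 8 genes had an LFC above 0, with a median of 0.24, and 7 of 8 did when scaled by Vmn1r reads, with a median of 0.14.

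**Figure D5:**
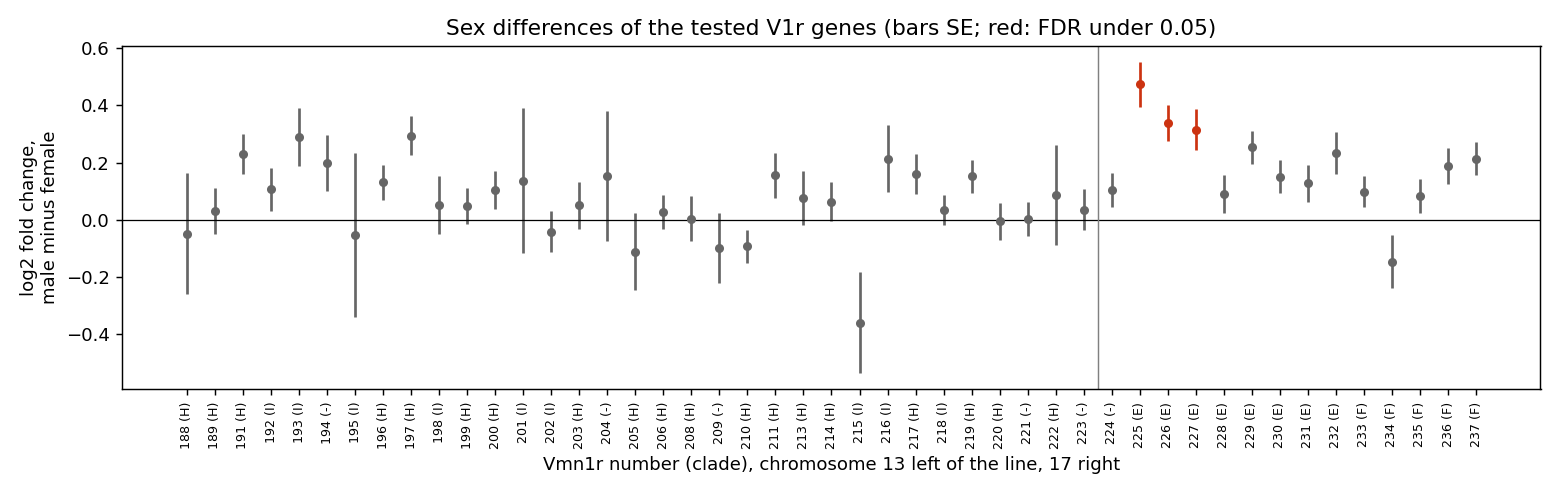
LFC of males against females with its SE for the 47 tested V1r genes in order of number, with the clade in brackets. The 3 red points, Vmn1r225, Vmn1r226 and Vmn1r227, lie between 0.32 and 0.48 and are the only ones with an FDR under 0.05.

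Whether the sex difference varied with strain was tested with interaction terms. In edgeR's test of the interaction 0 of 47 members passed an FDR of 0.05, against 0.0163% of all genes, and 2 had an unadjusted p under 0.05, against 8.94% of all genes. In edgeR's quasi-likelihood test with Benjamini-Hochberg adjusted p over all genes, these were Vmn1r236, with an FDR of 0.216, and Vmn1r222, with an FDR of 0.513. Vmn1r236 was higher in males than in females of B6 (234 ± 23.5 against 166 ± 7.91) and of SWR (304 ± 29.3 against 241 ± 12.97), without overlap in either strain. In 129 and SJL its sexes overlapped, with 789 ± 106 against 859 ± 79.6 and 189 ± 16.2 against 173 ± 24.1 (SD, n = 4 each). With no filter on low counts its FDR in the interaction test was 0.0126, and 428 genes passed then where 3 did before, while its FDR in the 6 other fits was 0.0524 to 0.625. Vmn1r222 was higher in females of 129, at 15.99 to 27.7 against 8.74 to 15.5 in males, and its sexes overlapped in the other strains.

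The genes through which these receptors act were taken from a fixed list. Of 18 genes known for signal transduction in vomeronasal neurons 16 were tested and 3 were DE in some pair of strains, beside 19.8% of all genes. Kcnj3, a potassium channel subunit opened by G proteins, had an LFC of 3.11 for SWR against B6. Plcb2, a phospholipase of the receptor cascade, had an LFC of 1.05 for B6 against 129, and Cnga4, a cyclic nucleotide-gated channel subunit, an absolute LFC of 1.09 between SWR and SJL, with means of 503 and 1071. Gnai2, the G protein subunit of the neurons that carry V1r receptors, had means of 6044 in B6 and 8167 to 8753 in the other strains, with an absolute LFC of at most 0.53. Trpc2 was listed at 0 reads in every library, and the overlapping gene Xntrpc had means of 715 in B6 and 1213 in 129. Of 13 genes for the identity of apical or basal neurons or the control of receptor genes, 11 were tested and 0 were DE with edgeR and the fold limit. Among them the transcription factors Lhx2 and Emx2 were lower in B6 than in 129, with absolute LFCs of 0.59 and 0.40, both with an FDR under 0.05 and below the fold limit.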

How the data were processed

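RNA of the VNO epithelium was sequenced by the authors from 32 mice, 4 males and 4 females of 4 strains. They trimmed the reads with Trim Galore, aligned them with STAR to GRCm38 (mm10) and deposited counts of uniquely placed reads on the reverse strand of each gene of Ensembl 87. A deposited table of normalized signal (normalized counts) holds these counts after the authors scaled each library by its size factor from DESeq2. Uniquely placed reads leave out those shared by near-identical copies. No columns of other samples were present, and every library was used. The number from 1 to 4 that the labels give each library, read as its lane, served as replicate number, and it did not pair the samples.

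The members and gene lists were chosen with earlier results of these data known, and so was the rule for named genes. Described with values are members whose libraries of 1 strain all had at most 3 reads while those of another all had more, the 6 DE members with the largest absolute LFC between strains that did not overlap, the 6 with the highest count per kb, the 4 steadiest with a mean of 50 or more, those with an FDR under 0.05 by sex or interaction or otherwise the 2 with the smallest p, and the 3 most identical pairs. Other members of the same arrays are named with their LFC. The pseudogene inside Vmn1r188 and the members with too few reads to test were described after their values were seen.

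Counts were tested with edgeR 4.0.16 in R 4.3.3 (TMM, filterByExpr over 8 groups, quasi-likelihood F test), with strain and sex as terms. Benjamini-Hochberg FDRs were computed over all 18382 genes tested, and calls of DE between strains needed a fold change above 2 (LFC above 1 or below -1) with an FDR below 0.05. Standard errors were derived from the LFC and its F statistic. The interaction was a test of 3 terms. The same steps were tested on simulated data. DESeq2 1.42.0 served as an alternative, and the others were its size factors, library sizes of Vmn1r reads, no filter, the replicate block, a background term, libraries left out and other limits.

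Genes were matched to GENCODE M21, 45 members by identifier and 4 by symbol, the latter with their sequence but without a position or a value per kb. Clades were read from RefSeq synonyms. Coding sequences were aligned with biopython 1.88 in place of proteins, which were not used here, and identity is the share of the longer sequence. Within a strain and sex, counts varied more than sampling noise in all 48 pairs of libraries, so none was the same library sequenced again. This check cannot tell whether separate libraries came from the same mouse. The members' reads set the depth of each value, and intervals were not computed beyond the spread between mice.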

Additional observations from a re-analysis of the deposited data

Results flagged for a closer look

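Within a strain, the highest or lowest of the 8 mice was set against the others for the named genes with more than 10 reads, in 81 groups, of which chance flags about 1 in 20. There were 3 such mice. The fourth 129 male had a normalized count of 366 for Vmn1r225, the gene with the largest sex difference, where the next mouse of the strain had 239 and the other 7 a mean of 189. For Vmn1r228 the fourth SJL male had 955, with 777 in the next mouse, and the second SWR male had 1141. All 3 are males, and the genes are of clade E.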

How the results depend on the processing

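The number of DE members in any pair was 16 to 20 under 8 alternatives and 17 to 19 when 1 library was left out. The replicate block left it at 18 with all 18 genes kept, and no paired reading was possible because same-numbered libraries did not deviate together (median correlation -0.01 over 112 pairs, 21 of them above 0.1). Vmn1r229 and Vmn1r230 were lost with a library size of Vmn1r reads and with the background term, and Vmn1r212 was added by DESeq2. Leaving out 1 library gave 6 to 8 members between B6 and 129, 9 to 10 between SJL and 129, 5 to 7 between SWR and 129, 3 to 7 between SJL and B6, 6 to 9 between SWR and B6 and 5 to 6 between SWR and SJL. The lowest of these, 3, was without the third SJL male. With an FDR of 0.05 and no fold limit the sex test gave 3 members, and with no filter the interaction gave 1. As a share of all gene reads instead of Vmn1r reads, B6 divided by 129 was 0.937 for all members (0.888 before), 1.10 for chromosome 13 (1.04) and 0.787 for chromosome 17 (0.746). Over all genes, 3632 were DE in some pair, and 3591 with the replicate block. There were 7564 with DESeq2 and 12873 with no filter, both from 44957 genes with any read. How many of these genes received an FDR from DESeq2 was not counted. By interaction 3 passed, 70 with DESeq2. Low members such as Vmn1r195, with 0 to 8 reads outside SWR, are limited by depth.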
